A study of Mus musculus with 6 samples.

Results

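Cadherins and protocadherins are cell surface proteins with repeated extracellular cadherin domains that bind calcium and hold cells to one another. All genes of the single-cell table with a symbol of Cdh followed by a number, or starting with Pcdh, were taken as members, which gave 94 of 17418 genes. They comprised 5 classical type I cadherins, 13 classical type II cadherins, 5 other cadherins, 4 delta-1, 5 delta-2 and 3 other non-clustered protocadherins, and 17, 21 and 21 genes with symbols of the *Pcdha*, *Pcdhb* and *Pcdhg* clusters. Of the 94, 43 had fewer than 100 UMIs (unique molecular identifiers, each marking 1 captured mRNA molecule) over all cells, and 25 were detected in 15% or more of a subtype's cells and entered a test.

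Single-cell RNA-Seq with the InDrop droplet system had been performed on dissociated cerebral cortex at P5 (postnatal day 5), from 3 WT and 3 *Fmr1*-KO mice of both sexes. WT mice were FVB.129P2-Pde6b+ Tyrc-ch/AntJ and *Fmr1*-KO mice were FVB.129P2-Pde6b+ Tyrc-ch Fmr1tm1Cgr/J. By these names both groups carried Pde6b+ and Tyrc-ch, and the KO mice also the Fmr1tm1Cgr allele, which all cells of a KO animal carry. The lines were separate stocks, so any further difference between them cannot be told apart from the allele. InDrop beads of version V2 were used for WT 1, *Fmr1*-KO 1 and *Fmr1*-KO 2, and of version V3.8 for WT 2, WT 3 and *Fmr1*-KO 3, a split that coincided with the collection batch. The tissue had been dissociated with papain before capture, and the subtype of each cell was that given by the authors, with the cells they marked as doublets left out.

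Classical cadherins form the adhesive core of adherens junctions, where their cytoplasmic tails bind catenins, and type I and type II members sort cells by preferring partners of their own kind. Delta protocadherins (such as *Pcdh10*, *Pcdh17* and *Pcdh19*) adhere more weakly and reach the actin cytoskeleton through the WAVE regulatory complex. In the *Pcdha* and *Pcdhg* clusters, each variable exon has a promoter of its own and is spliced to constant exons shared by the whole cluster, whereas *Pcdhb* genes lie side by side as single-exon genes. Neurons choose among these promoters, and the resulting set of surface isoforms lets a neuron recognise its own branches.

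Over 17 libraries, 17280 cells in 18 subtypes were used, with 7909181 to 20629134 UMIs per mouse and a median of 1957 to 4908 UMIs per cell. *Fmr1*, the targeted gene, lay at 68.4, 74.1 and 72.5 CPM (UMIs of the gene per 1000000 UMIs of all genes) in WT 1, 2 and 3 and at 17.2, 19.9 and 16.1 CPM in *Fmr1*-KO 1, 2 and 3. Each of 14 marker lists, summed, was highest in the subtype it names, with astrocyte and OPC markers highest in Astrocytes_1 and OPC_1 and general neuronal markers in Excitatory. The same barcode recurred in several libraries of 1 mouse in 3307 pairs of cells, and 93.3% of these pairs had the same subtype, against 16.7% of the 468 pairs with a shared barcode between mice. Tests were therefore repeated with each such barcode kept once per mouse, which left out 2430 cells (14.1%). Levels are given as CPM of the UMIs summed per mouse and subtype, for 15 subtypes with at least 10 cells in at least 3 mice. UMIs were captured at the 3' end and not scaled by length, and levels were compared between subtypes for 1 gene, not between genes.

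The promoter regions of members that were set apart in their highest subtype are shown first, since these genes recur below. Of 9 members for which every mouse in the highest subtype lay above every mouse in the next, 4 had a window shown here. Each is the 250 bases before the annotated start, 5' to 3' on the strand of the gene, from RefSeq on build GRCm38.p6, and capitals mark the E-box letters CANNTG, which basic helix-loop-helix factors can bind. *Pcdh18* was highest in pericytes (minus strand, chr3:49757317-49757566), *Pcdh15* (plus strand, chr10:73821617-73821866) and *Pcdh17* (plus strand, chr14:84443313-84443562) in OPC_1, and *Cdh12* (plus strand, chr15:21111202-21111451) in excitatory neurons. The *Pcdh15* and *Cdh12* windows lie inside the annotated span of the gene, as do 67 of the 250 bases of the *Pcdh18* window, so that these 3 precede an internal start.
Pcdh18: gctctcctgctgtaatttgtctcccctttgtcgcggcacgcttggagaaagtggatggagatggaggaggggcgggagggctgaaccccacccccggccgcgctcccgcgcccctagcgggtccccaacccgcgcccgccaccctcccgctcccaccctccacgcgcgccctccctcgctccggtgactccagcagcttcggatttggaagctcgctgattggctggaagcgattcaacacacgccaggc
Pcdh15: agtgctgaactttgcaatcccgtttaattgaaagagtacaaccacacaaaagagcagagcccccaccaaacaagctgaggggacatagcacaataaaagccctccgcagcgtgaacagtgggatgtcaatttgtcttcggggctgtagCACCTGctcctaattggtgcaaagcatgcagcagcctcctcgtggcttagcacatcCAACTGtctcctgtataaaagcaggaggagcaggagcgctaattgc
Pcdh17: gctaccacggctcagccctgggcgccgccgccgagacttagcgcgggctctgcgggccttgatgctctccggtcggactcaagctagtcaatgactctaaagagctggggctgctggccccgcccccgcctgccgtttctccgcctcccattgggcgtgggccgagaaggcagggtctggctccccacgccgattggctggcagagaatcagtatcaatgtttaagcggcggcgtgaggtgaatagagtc
Cdh12: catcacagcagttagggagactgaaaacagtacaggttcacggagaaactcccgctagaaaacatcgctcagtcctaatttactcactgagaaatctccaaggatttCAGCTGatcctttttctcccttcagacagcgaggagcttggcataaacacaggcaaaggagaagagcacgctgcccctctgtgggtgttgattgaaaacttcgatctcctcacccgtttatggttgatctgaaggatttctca

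The letters CANNTG, a pattern that reads the same on both strands, occurred 2 times in the *Pcdh15* window, 1 time in the *Cdh12* window and not in the *Pcdh17* and *Pcdh18* windows. They were present in 66.2% of all 32851 RefSeq windows of the same length. ACAAT or its reverse complement, the core letters read by SOX factors, occurred 1 time in the *Pcdh15* window and in none of the other three, against 27.7% of all windows. TATAAA on either strand was found 1 time, in the *Pcdh15* window, against 12.4% of all windows. GC content was 68.0% for *Pcdh18*, 64.8% for *Pcdh17*, 50.4% for *Pcdh15* and 46.8% for *Cdh12*, beside a median of 52.4% over all windows. *Pcdh15* and *Pcdh17*, which were both highest in OPC_1, thus did not share the letters searched.

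To describe where each member was used, levels were ranked over the 15 subtypes. Because the authors clustered the same cells to define the subtypes, differences between subtypes are a description and were not tested. Endothelial cells, pericytes, OPC_1, Cajal-Retzius (CR) cells and excitatory neurons each had 1 or more members with every mouse above every mouse of the next subtype. Such members need not be limited to that subtype, as *Pcdh17* had means of 512 CPM in OPC_1 and 320 CPM in Astrocytes_1. In all, 9 of 89 members with a UMI in these cells (10.1%) had every mouse of the highest subtype above every mouse of the next, beside 16.1% of 17345 genes. Among genes with a mean of at least 20 CPM in their highest subtype the shares were 25% of 36 members and 21.8% of 12419 genes, so that the share of members was near that of other genes.

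**Figure D1:**
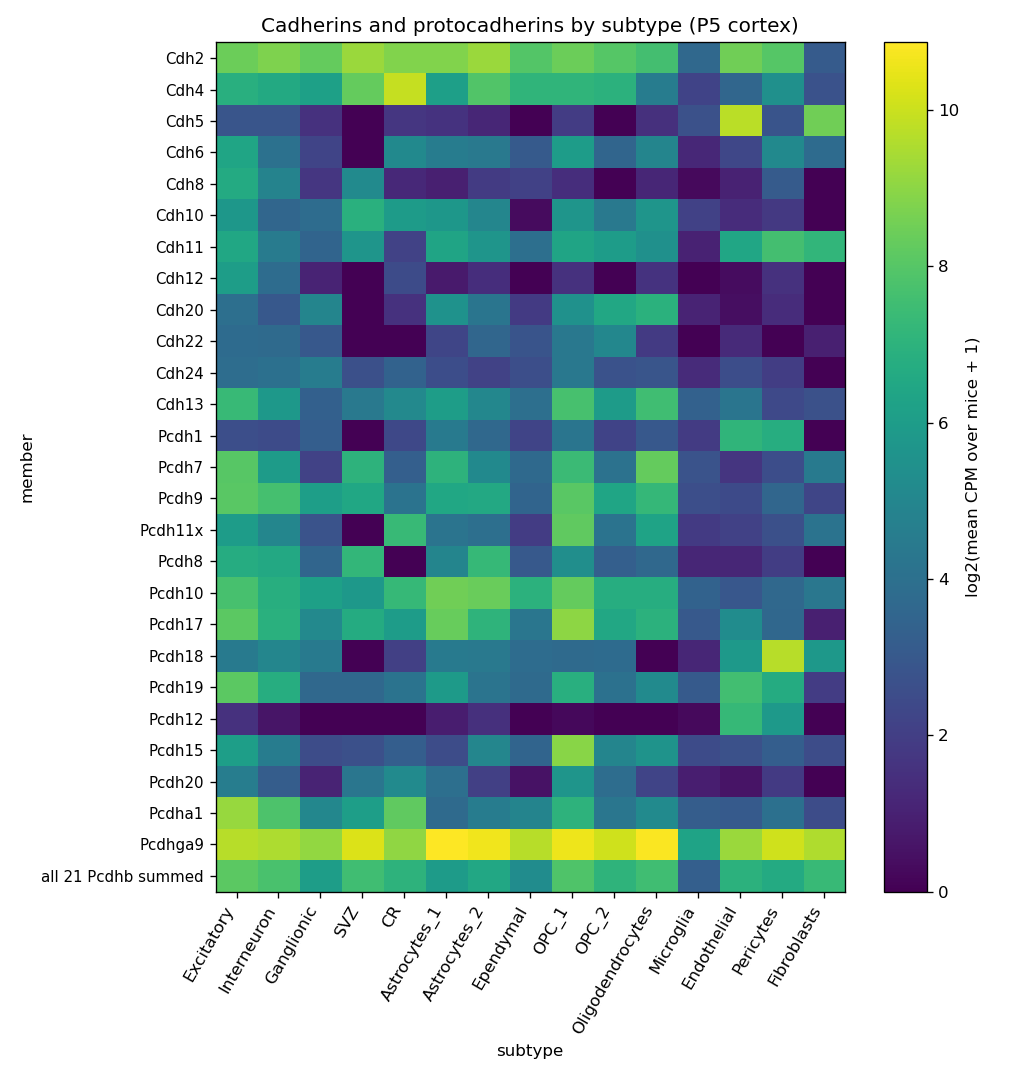
Level as log2(mean CPM over mice + 1) of each member with at least 400 UMIs (rows, in the order of the families) and of the 21 *Pcdhb* genes summed, in 15 subtypes (columns). *Cdh5* stands out in Endothelial (846 CPM), *Pcdh18* in Pericytes (825 CPM), *Pcdh15* in OPC_1 (488 CPM), *Cdh4* in CR (966 CPM) and *Pcdha1* in Excitatory (584 CPM), and the Microglia column is low for every family.

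Among classical type I cadherins, *Cdh2* (N-cadherin, the main cadherin of neural cells) was the most widely detected, with 27293 UMIs. It was tested in 9 of the 10 subtypes and ranged from 601 CPM in Astrocytes_2 and 594 CPM in SVZ migrating neurons to 7.6 CPM in fibroblasts. Astrocytes_2 and SVZ did not differ beyond the spread between mice, since Astrocytes_2 lay at 480 to 727 CPM and SVZ at 497 to 688 CPM. *Cdh4* (R-cadherin) was highest in CR cells, at 961 and 827 CPM in WT 1 and 3 and at 1277, 1045 and 720 CPM in *Fmr1*-KO 1, 2 and 3. In the SVZ cells, the next subtype, *Cdh4* lay at 299 CPM in WT 1 and at 657, 157 and 122 CPM in *Fmr1*-KO 1, 2 and 3. All 5 mice with enough CR cells thus lay above the 4 mice with enough SVZ cells. *Cdh1* (E-cadherin, typical of epithelia) had 37 UMIs in all and was highest in fibroblasts, at 0 CPM in WT 2, 56.7 CPM in WT 3 and 46.4 CPM in *Fmr1*-KO 2.

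Of the type II cadherins, *Cdh5* (VE-cadherin, the cadherin of endothelial junctions) was highest in endothelial cells, at 1090, 779 and 777 CPM in WT 1, 2 and 3 and at 807, 869 and 755 CPM in *Fmr1*-KO 1, 2 and 3. A *Cdh5* UMI was found in 80.1% of 1439 endothelial cells and in 0.674% of 890 pericytes (median depths of 3687 and 2693.5 UMIs per cell). Fibroblasts were next, at 295, 300.5 and 499 CPM in WT 2, WT 3 and *Fmr1*-KO 2. The 5 endothelial markers (*Cldn5*, *Pecam1*, *Flt1*, *Kdr* and *Ly6c1*) summed to 11.6 to 31.2 CPM in these fibroblasts, with 2 of 5 at 0, against 10032 to 13167 CPM in endothelial cells. The *Cdh5* level of these fibroblasts thus stood beside endothelial markers near 0.

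Neurons held a further set of type II cadherins. *Cdh12* lay at 57.1, 79.2 and 77.8 CPM in WT 1, 2 and 3 and at 55.3, 42.9 and 80.3 CPM in *Fmr1*-KO 1, 2 and 3 in excitatory neurons, and at 2.7 to 31.3 CPM in interneurons, the next subtype. Each mouse thus had more *Cdh12* in excitatory neurons than any mouse had in interneurons. *Cdh8*, which marks subsets of cortical projection neurons, was also highest in excitatory neurons at 100.02 ± 23.96 CPM (SD, n = 6), but 1 mouse of the next subtype (SVZ, 85.3 CPM) lay within their range of 75.8 to 142 CPM. *Cdh9* was highest there too at 21.7 ± 11.6 CPM (SD, n = 6), with mice from 8.83 to 34.2 CPM overlapping the interneurons. *Cdh11*, known from mesenchymal cells, was highest in pericytes at 156 to 246 CPM, and fibroblasts, the next subtype, overlapped this range at 65.5, 90.7 and 267 CPM. *Cdh20* had its highest means in oligodendrocytes (123 CPM) and OPC_2 (89.1 CPM), with ranges that overlapped. In OPC_1 it lay at 34.6 to 60.8 CPM, which overlapped Astrocytes_1 (34.5 to 53.1 CPM), so the peak did not cover all oligodendrocyte and OPC subtypes.

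*Cdh10* and *Cdh22* had their highest means in small subtypes. *Cdh10* lay at 85.3, 52.6, 131 and 199 CPM in the 4 mice with enough SVZ cells, from 24 UMIs, and overlapped the CR cells. *Cdh22* reached 31.7 ± 18.9 CPM (SD, n = 5) in OPC_2, from 8 UMIs. At these counts the rank of either gene among subtypes was uncertain.

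The remaining cadherins were represented mainly by *Cdh13* (T-cadherin, which lacks the cytoplasmic tail and is anchored to the membrane by a lipid). Its levels in oligodendrocytes (136 to 260 CPM), OPC_1 (167 to 240 CPM) and excitatory neurons (112 to 226 CPM) overlapped. *Cdh26* was seen almost only in ependymal cells, which gave 45 of its 46 UMIs. It lay at 16.8, 54.2 and 48.9 CPM in WT 1, 2 and 3 and at 0, 30.1 and 37.6 CPM in *Fmr1*-KO 1, 2 and 3, so that 1 mouse had none. *Cdh16*, known from the kidney, had 260 UMIs in all and was tested in no subtype.

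Several non-clustered protocadherins were highest in a glial or vascular subtype, and others had similar levels in more than 1 subtype. *Pcdh15*, known for the tip links of hair cells, lay in OPC_1 at 479, 456 and 500 CPM in WT 1, 2 and 3 and at 521, 534 and 442 CPM in *Fmr1*-KO 1, 2 and 3. The next subtype, excitatory neurons, held 27.2 to 131 CPM, and no mouse came near the OPC_1 values. A UMI of *Pcdh15* was found in 63.2% of 1953 OPC_1 cells and in 1.68% of 6371 Astrocytes_1 cells, although the latter were the deeper (medians of 2772 and 3755 UMIs per cell). *Pcdh11x*, an X-linked delta-1 member, was likewise highest in OPC_1, at 328, 275 and 333 CPM in WT and at 290, 273 and 284 CPM in *Fmr1*-KO mice, above the 104 to 237 CPM of CR cells. *Pcdh17*, a delta-2 member, was the third with its peak there, at 419 to 644 CPM against 288 to 364 CPM in Astrocytes_1. In oligodendrocytes, *Pcdh15* was found in 13.8% of 354 cells.

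**Figure D2:**
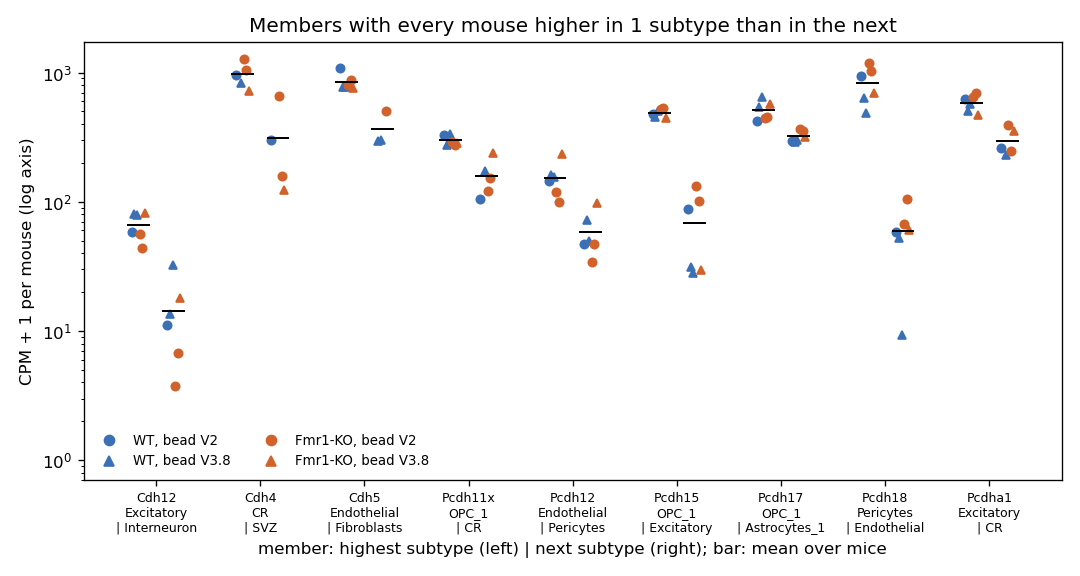
Level per mouse, as CPM + 1 on a log axis, of the 9 members for which every mouse in the highest subtype (left of each pair) was above every mouse in the next (right of each pair), with bars at the mean over mice. *Pcdh18* (825 CPM in Pericytes against 57.95 in Endothelial) and *Pcdh15* (488 CPM in OPC_1 against 67.4 in Excitatory) have the widest gaps, and colours and symbols give genotype and bead version.

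In pericytes, *Pcdh18* (delta-2) lay at 935, 633 and 488 CPM in WT 1, 2 and 3 and at 1180, 1019 and 695 CPM in *Fmr1*-KO 1, 2 and 3. Endothelial cells were next at 8.3 to 104 CPM, and the 2 ranges were far apart. *Pcdh12* (vascular endothelial cadherin-2) showed the opposite order, with 99.2 to 235 CPM in endothelial cells and 33.5 to 96.8 CPM in pericytes. *Pcdh1*, a delta-1 member, was shared by both vascular types, at 76.7 to 180 CPM in endothelial cells and at 82.2 to 172 CPM in pericytes. *Pcdh19*, the X-linked delta-2 gene linked to an epilepsy of females, had a high level in endothelial cells (158 to 212 CPM) as well as in excitatory neurons (153 to 465 CPM), and these ranges overlapped.

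The delta-2 member *Pcdh10* was highest in astrocytes, at 304 to 435 CPM in Astrocytes_1 and 305 to 359 CPM in Astrocytes_2, and overlapped OPC_1 (274 to 352 CPM). Vascular cells had little *Pcdh10*, with 3.4 to 13.2 CPM in endothelial cells. *Pcdh8* was highest in Astrocytes_2 (115 to 196 CPM) and overlapped SVZ cells (85.3 to 209 CPM), but lay at only 18.4 to 41.8 CPM in Astrocytes_1. The delta-1 members *Pcdh7* and *Pcdh9* were high in excitatory neurons (182 to 365 and 243 to 306 CPM). *Pcdh7* was as high in oligodendrocytes (239 to 395 CPM) and *Pcdh9* in OPC_1 (260 to 294 CPM), and the ranges of either pair overlapped. *Pcdh20* was highest in OPC_1 at 32.2 to 59.1 CPM, and CR cells overlapped this range (10.4 to 76.7 CPM).

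Microglia had the lowest summed level of the 15 subtypes in 6 of the 9 families and under 30 CPM in 8 of them. Its highest family was the *Pcdhg* cluster at 80.0 ± 45.4 CPM (SD, n = 6), against 1865 CPM in Astrocytes_1. When cells were thinned to 700 UMIs, 16 of 17 members with at least 20 CPM in their highest subtype and 1.5 times the next kept it. These 17 were chosen by that lead in the same cells, so their order was likely to hold. The other was *Pcdhb3*, which rested on 4 UMIs in SVZ cells. Among members with smaller leads, *Cdh2*, *Pcdh9* and *Pcdh10* kept their highest subtype and others did not. *Cdh20* moved from oligodendrocytes to OPC_2 and *Pcdh7* from oligodendrocytes to excitatory neurons. *Pcdh8* moved from Astrocytes_2 to SVZ cells and *Pcdh20* from OPC_1 to CR cells.

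For the clustered protocadherins, the table did not resolve single isoforms of *Pcdha* and *Pcdhg*. The entries *Pcdhga1*, *Pcdhga9* and *Pcdha4-g* held 89157, 89148 and 89162 UMIs, and over all cells, doublets included, they differed in 21 to 33 of 14342 to 14344 cells with a UMI. *Pcdha1* and *Pcdha2* differed in 82 of 2626 cells. The other 19 *Pcdhg* genes held 375 UMIs together, the largest of them 60, and the other 12 *Pcdha* genes held 240. RefSeq places the ends of 18 of 21 *Pcdhg* genes at 1 of 2 positions 3 bases apart, which is where a 3' method reads, while the ends of all 21 *Pcdhb* genes differ. *Pcdhga9* and *Pcdha1* are therefore given below as the signal of the *Pcdhg* and *Pcdha* clusters as a whole, and the repeated entries were counted once. According to the study's methods, reads with several alignments were ignored in counting, so the cluster levels may be understated.

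The *Pcdhg* signal (*Pcdhga9*) was broad, with its highest means in Astrocytes_1 and oligodendrocytes. It reached 1859 CPM in Astrocytes_1, 1791 CPM in oligodendrocytes and 1532 CPM in OPC_1, against 838 CPM in excitatory neurons, 736 CPM in interneurons and 77.6 CPM in microglia. Summed over the *Pcdhg* genes, SVZ cells lay at 857 to 1568 CPM and overlapped OPC_1 (1140 to 1828 CPM). Ependymal cells had a mean of 838 CPM for this sum. A UMI of *Pcdhga9* was present in 94.2% of Astrocytes_1 cells and 15.4% of microglia (medians of 3755 and 2655.5 UMIs per cell). In Astrocytes_1 it lay at 2299, 1416 and 1409 CPM in WT 1, 2 and 3 and at 2537, 2217 and 1276 CPM in *Fmr1*-KO 1, 2 and 3. These values split by bead version rather than by genotype, with all 3 V2 mice above all 3 V3.8 mice.

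**Figure D3:**
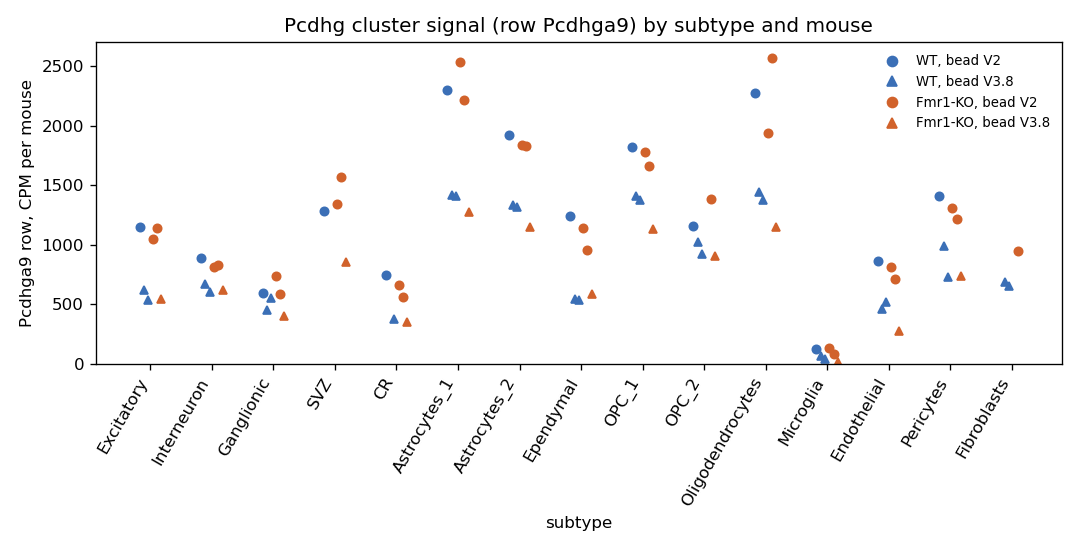
Level of *Pcdhga9*, which stands for the signal of the *Pcdhg* cluster, in CPM for each mouse with at least 10 cells, in 15 subtypes. Circles (bead V2) lie above triangles (bead V3.8) in each of the 13 subtypes that had at least 2 mice of both versions, and microglia are lowest, at 16.3 to 134 CPM.

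The *Pcdha* signal, in contrast, was highest in excitatory neurons, CR cells and interneurons. *Pcdha1* lay in excitatory neurons at 620, 501 and 567 CPM in WT 1, 2 and 3 and at 647, 700 and 467 CPM in *Fmr1*-KO 1, 2 and 3. CR cells were next at 230 to 395 CPM and interneurons followed at 145 to 304 CPM, and these last 2 ranges overlapped. Astrocytes_1 had 6.0 to 18.5 CPM. *Pcdha1* and *Pcdhga9* thus had opposite orders in excitatory neurons and Astrocytes_1 in all 6 mice. OPC_1, which is glial, held *Pcdha1* at 106 to 160 CPM in all 6 mice. Summed over the *Pcdha* genes, means were 134 CPM in OPC_1, 71.9 CPM in SVZ cells (26.1 to 128 CPM) and 32.0 CPM in Ganglionic cells.

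The 21 *Pcdhb* genes had separate counts, from 53 UMIs for *Pcdhb2* to 995 for *Pcdhb17*, followed by *Pcdhb20* with 888. Their sum was highest in excitatory neurons (275 ± 88.9 CPM, SD, n = 6), OPC_1 (231 ± 38.8 CPM) and interneurons (214 ± 33.9 CPM), whose ranges overlapped, and lowest in microglia (8.86 ± 6.40 CPM). *Pcdhb3* and *Pcdhb5* had their highest means in SVZ cells, from 4 and 8 UMIs, where at least 1 mouse had none. No *Pcdhb* gene reached 15% of the cells of a subtype, so that none entered a test.

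Because single neurons are known to express few of the *Pcdhb* genes, cells with exactly 2 *Pcdhb* UMIs were examined. In excitatory neurons both UMIs came from the same gene in 70 of 168 such cells (41.7%), with 25 to 56.7% in the 6 mice. Drawing the 2 UMIs from different cells of the same mouse would give the same gene in 7.20 to 9.07% of cases. The share was 46.5% of 86 interneurons, 40.3% of 206 OPC_1 cells, 42.1% of 95 endothelial cells and 59.5% of 257 Astrocytes_1 cells, so it was not limited to neurons. The excess was not limited to *Pcdhb* either. Among excitatory neurons with exactly 2 type II cadherin UMIs the share was 41.6% of 178 cells, against 14.2 to 18.7% between cells, and for delta-2 protocadherins 49.5% of 182 cells, against 25.9 to 28.1%. The part of UMIs that were copies of 1 molecule in these shares was not tested. Up to 7 different *Pcdhb* genes had a UMI in 1 excitatory neuron.

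The main comparison of the study was between genotypes, and it was made here for all genes detected in 15% or more of a subtype's cells, in each of 10 subtypes. The members gave 82 tests of 22 genes, and none was called at an FDR under 0.01, above a small minimum fold change, by edgeR's quasi-likelihood test with Benjamini-Hochberg adjustment. At an unadjusted p under 0.05, edgeR gave 4 of the 82 and DESeq2 2, and the lowest FDR of a member was 0.302. Of all genes tested, the share called was 0.0208% in Astrocytes_1, 0.0499% in Ganglionic cells, 0.0245% in OPC_1, 0.0423% in oligodendrocytes and 0% in Astrocytes_2, Endothelial, Excitatory, Interneuron, Microglia and Pericytes. These were 6 calls of 5 genes, so that calls were rare among all genes. *Fmr1* itself passed the detection filter only in Astrocytes_1 and OPC_1 and was called in both, which gave 2 of the 6 calls. Its log2 fold change was -2.15 (SE 0.11) in Astrocytes_1 and -1.78 (SE 0.22) in OPC_1. The fold changes of the members were higher in *Fmr1*-KO in 44 tests and lower in 38, and 26 of the 82 changed direction without the bead version term.

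At an unadjusted p under 0.05, 2 of 12 members were found in Astrocytes_1 (4.72% of all genes tested), 1 of 13 in Excitatory (3.48%) and 1 of 7 in Endothelial (11%). No member was found at that level among 7 in Astrocytes_2 (4.26% of all genes), 5 in Ganglionic (6.39%), 6 in Interneuron (4.53%), 1 in Microglia (3.12%), 14 in OPC_1 (4.24%), 10 in Oligodendrocytes (4.4%) and 7 in Pericytes (3.29%). Summed over the subtypes these are 4 of 82 tests. None of the 4 stood after adjustment, as follows.

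*Cdh13* in excitatory neurons lay at 155, 226 and 172 CPM in WT 1, 2 and 3 and at 136, 140 and 112 CPM in *Fmr1*-KO 1, 2 and 3. Each *Fmr1*-KO mouse lay below each WT mouse. The log2 fold change was -0.49 (SE 0.19, unadjusted p = 0.0245, FDR 0.999, edgeR), and it was smaller among V2 mice (log2 ratio -0.16) than among V3.8 mice (-0.82). In Astrocytes_1 the log2 fold change of *Cdh13* was 0.04 (SE 0.12), and the test of the difference between these subtypes (Astrocytes_1 minus Excitatory) gave 0.49 (SE 0.26, unadjusted p = 0.0953, FDR 0.997).

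*Pcdhga9* in endothelial cells lay at 862, 463 and 520 CPM in WT and at 815, 711 and 271 CPM in *Fmr1*-KO mice, and the groups overlapped. With bead version in the model its log2 fold change was -0.47 (SE 0.16, unadjusted p = 0.00961, FDR 0.302, edgeR). Its fold change was below 0 in 10 of 10 subtypes, from -0.67 in microglia to -0.03 in Astrocytes_1, but the subtypes come from the same 6 mice. Without the bead version term it was above 0 in 9 of the 10 (0.01 to 0.28) and below 0 in endothelial cells (-0.05), so that its direction depended on that term.

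In Astrocytes_1, *Pcdh17* lay at 296, 288 and 302 CPM in WT and at 364, 353 and 317 CPM in *Fmr1*-KO mice. Each *Fmr1*-KO mouse lay above each WT mouse, with a log2 fold change of 0.20 (SE 0.08, unadjusted p = 0.0365, FDR 0.923, edgeR). *Cdh20* lay at 34.5, 41.7 and 48.8 CPM in WT and at 48.7, 44.2 and 53.1 CPM in *Fmr1*-KO mice, with overlapping groups and a log2 fold change of 0.33 (SE 0.13, unadjusted p = 0.0287, FDR 0.923, edgeR).

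**Figure D4:**
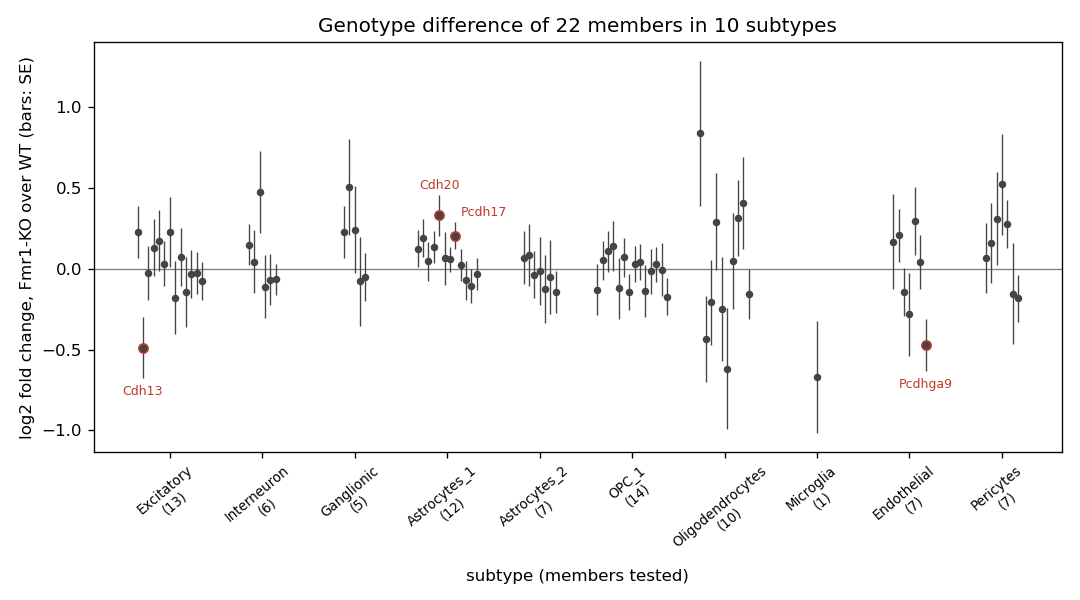
Log2 fold change of *Fmr1*-KO over WT with its SE, from edgeR with bead version in the model, for each of the 82 tests of members in 10 subtypes. Red points mark the 4 with an unadjusted p under 0.05, none of which was called after adjustment, and the widest SE (0.45) is that of *Cdh10* in Oligodendrocytes.

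Members whose mice separated by genotype in 1 subtype were 6 of the 82 tests, beside 7.06% of 38812 tests of all genes. Beside *Cdh13* in excitatory neurons and *Pcdh17* in Astrocytes_1 these were *Cdh11* in excitatory neurons, *Pcdh7* and *Pcdh9* in oligodendrocytes and *Pcdh1* in pericytes, each with every *Fmr1*-KO mouse above every WT mouse. *Cdh11* lay at 82.5, 81.0 and 77.8 CPM in WT and at 92.2, 111 and 86.7 CPM in *Fmr1*-KO excitatory neurons, with a log2 fold change of 0.23 (SE 0.16). *Pcdh7* lay at 239, 279 and 284 CPM in WT and at 395, 379 and 303 CPM in *Fmr1*-KO oligodendrocytes, with a log2 fold change of 0.31 (SE 0.23). The log2 fold change was 0.41 (SE 0.29) for *Pcdh9* and 0.31 (SE 0.29) for *Pcdh1*, and none of these 4 had an unadjusted p under 0.05.

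Beside *Pcdhga9*, 6 members were tested in 5 or more subtypes. *Cdh2* had log2 fold changes from -0.21 to 0.23 in 9 subtypes, *Pcdh10* from -0.25 to 0.24 in 7, *Pcdh9* from -0.11 to 0.41 in 7, *Pcdh17* from -0.01 to 0.47 in 6, *Pcdh19* from -0.18 to 0.04 in 5 and *Cdh11* from -0.13 to 0.23 in 5. The precision differed, with an SE for *Pcdh10* of 0.08 in Astrocytes_1 and 0.32 in oligodendrocytes. Among members set apart in their highest subtype, the log2 fold changes there were -0.15 (SE 0.15) for *Cdh5* in endothelial cells, 0.28 (SE 0.15) for *Pcdh18* in pericytes, 0.03 (SE 0.11) for *Pcdh15* in OPC_1 and -0.03 (SE 0.13) for *Pcdha1* in excitatory neurons. The log2 fold change of *Pcdh12* was 0.30 (SE 0.21) in endothelial cells and 0.52 (SE 0.31) in pericytes, and without *Fmr1*-KO 3 these values were -0.44 and -0.24. In pericytes *Pcdh18* overlapped between the genotypes, and its log2 ratio was above 0 within both bead versions (0.23 for V2 and 0.31 for V3.8). Fold changes with the widest SEs were those of *Cdh10* (0.84, SE 0.45) and *Pcdh11x* (-0.62, SE 0.37) in oligodendrocytes, from 1 to 30 and 6 to 41 UMIs per mouse. In the other tested subtypes the members with the smallest p were *Cdh4* in Ganglionic cells (0.51, SE 0.30, and -0.14 without WT 1), *Pcdh17* in interneurons (0.47, SE 0.25) and *Pcdhga9* in Astrocytes_2 (-0.14, SE 0.13), OPC_1 (-0.17, SE 0.12) and microglia (-0.67, SE 0.35). Those next in order were between -0.44 (*Cdh13* in oligodendrocytes, SE 0.27) and 0.24 (*Pcdh10* in Ganglionic cells, SE 0.27), among them *Cdh2* in endothelial cells (0.21, SE 0.16), Ganglionic cells (0.23, SE 0.16) and interneurons (0.15, SE 0.12).

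Whether the genotype difference itself differed between subtypes was tested with mouse as a block. A bead version effect that differs between subtypes was not in this model. Its estimates therefore need not equal the gap between the fold changes above. For *Pcdh17*, these were 0.23 in excitatory neurons and 0.47 in interneurons, while this model gave a difference of 0.0013. Of the members, 6 were tested for Interneuron minus Excitatory, 4 for Ganglionic minus Interneuron and 9 for Astrocytes_1 minus Excitatory. None was called at an FDR under 0.05 by edgeR, none had an unadjusted p under 0.05, and 0% of all genes were called in each pair. DESeq2 was not run on these pairs.

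Genes that act with the members were described in the same way. Of 18 catenins and other adherens junction partners, 14 were in the table and gave 67 tests, with 0 called and, at an unadjusted p under 0.05, 0 higher and 2 lower in *Fmr1*-KO. The 2 were *Ctnnd2* (delta-catenin) in Ganglionic cells (log2 fold change -0.52, SE 0.23) and *Ctnnd1* (p120 catenin, which stabilises cadherins at the surface) in oligodendrocytes (-0.71, SE 0.35). Other genes of the cadherin superfamily (*Celsr*, *Fat*, *Dchs* and calsyntenin genes) gave 38 tests, with 0 called and 1 at p under 0.05, *Clstn2* in pericytes (0.60, SE 0.27). Genes of protocadherin processing and promoter choice (such as *Adam10*, *Ctcf* and cohesin genes) gave 101 tests, with 0 called, 2 higher and 1 lower at p under 0.05, among them the cohesin gene *Smc1a* in endothelial cells (0.49, SE 0.18, FDR 0.319, edgeR). Intracellular partners of protocadherins gave 79 tests, with 0 called, 0 higher and 3 lower at p under 0.05. Of these 3, 2 were *Nckap1*, a subunit of the WAVE regulatory complex, in Ganglionic cells (-0.58, SE 0.22, FDR 0.762, edgeR) and in interneurons (-0.44, SE 0.18, FDR 0.998). The third was *Ptk2* (focal adhesion kinase) in oligodendrocytes (-0.65, SE 0.33). By the same edgeR test, 5.04% of 38812 tests of all genes had an unadjusted p under 0.05. Each of these gene lists had a smaller share, so none held an excess over all genes.

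The values of several members followed bead version more closely than genotype, so the bead version term of the same fit was examined in the 3 subtypes with at least 12 members tested, a comparison chosen after the values were seen. At an FDR under 0.05 by edgeR, 7 of 13 members differed between V2 and V3.8 mice in excitatory neurons (42.3% of all genes tested), 5 of 12 in Astrocytes_1 (35.9%) and 4 of 14 in OPC_1 (18.1%). With 12 to 14 members a subtype, these counts were near the share of all genes. In excitatory neurons 6 of the 7 were higher in V2 mice, in Astrocytes_1 all 5 were, and in OPC_1 2 were higher in V2 and 2 in V3.8 mice. Bead version, collection batch and any further difference between these mice cannot be told apart.

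*Cdh6*, a type II cadherin, was the main member in the other direction. In excitatory neurons it lay at 31.7, 27.7 and 41.8 CPM in the V2 mice (WT 1, *Fmr1*-KO 1 and *Fmr1*-KO 2) and at 130, 127 and 137 CPM in the V3.8 mice (WT 2, WT 3 and *Fmr1*-KO 3). In OPC_1 it lay at 27.9, 19.7 and 32.2 CPM in V2 and at 99.1, 108 and 92.3 CPM in V3.8 mice. It was 3.65-fold higher in V3.8 mice in excitatory neurons (log2 1.87, SE 0.19, FDR 2.47e-05, edgeR) and 3.54-fold higher in OPC_1 (log2 1.82, SE 0.20, FDR 2.22e-05). The V3.8 mice lay above the V2 mice in 6 of 13 subtypes and never below them. The genotype difference of *Cdh6*, with bead version in the model, was 0.13 (SE 0.18) in excitatory neurons and -0.12 (SE 0.19) in OPC_1.

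*Cdh4* and *Pcdhga9* were higher in the V2 mice. *Cdh4* lay in Astrocytes_1 at 88.8 to 119 CPM in V2 and at 26.7 to 38.7 CPM in V3.8 mice, 3.23-fold apart (FDR 0.000325, edgeR). *Pcdhga9* was 2.15-fold higher in V2 mice in excitatory neurons (1046 to 1150 against 539 to 618 CPM), 1.69-fold in Astrocytes_1 and 1.43-fold in OPC_1. Its V2 mice lay above its V3.8 mice in 13 of 13 subtypes with at least 2 mice of both versions. *Pcdh10* was higher in V2 mice in excitatory neurons (1.62-fold) and Astrocytes_1 (1.27-fold) but not in OPC_1 (0.96-fold), and *Pcdh17* in OPC_1 was 1.32-fold higher in V3.8 mice.

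**Figure D5:**
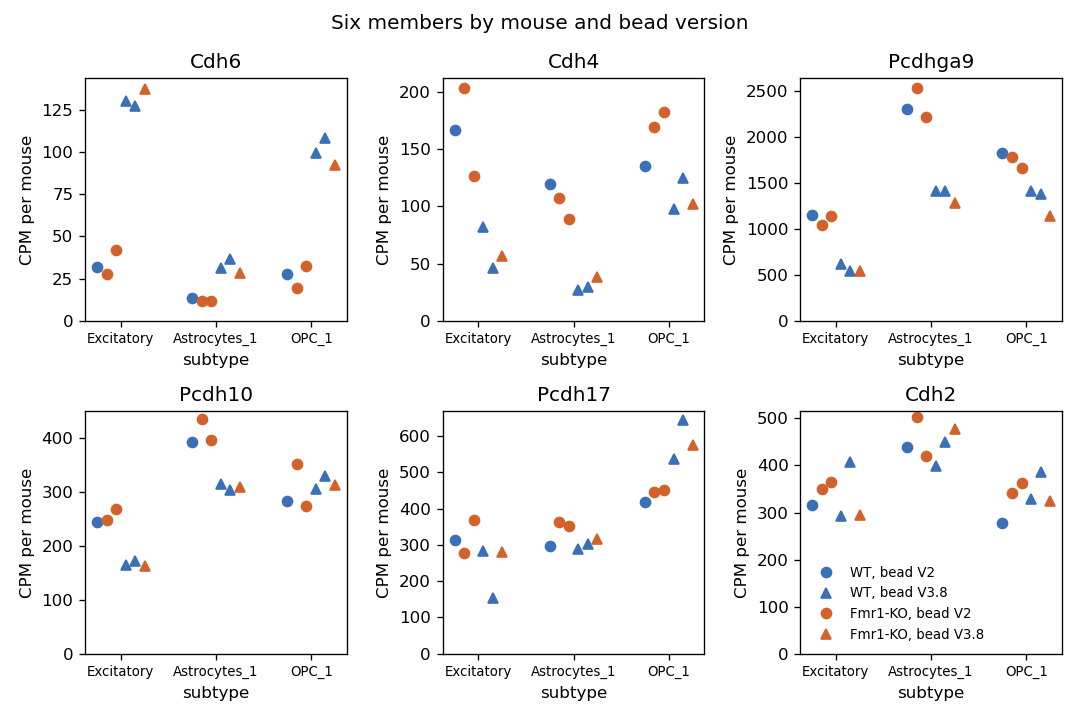
CPM per mouse of 6 members in Excitatory, Astrocytes_1 and OPC_1, with V2 mice as circles and V3.8 mice as triangles. *Cdh6* is higher in all V3.8 mice, *Cdh4* and *Pcdhga9* in all V2 mice, *Pcdh10* in V2 mice in 2 of the 3 subtypes and *Pcdh17* in V3.8 mice in OPC_1, while *Cdh2* overlaps in each subtype shown.

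Cell type markers also moved with bead version. Within excitatory neurons the 4 interneuron markers summed to 588 to 677 CPM in V2 and to 94.0 to 137 CPM in V3.8 mice, and the 5 excitatory markers to 2577 to 3119 and 4436 to 5169 CPM. Their part in the bead version differences of *Cdh6* and the other members in these cells was not tested. Outside neurons, the same excitatory markers summed to 116 to 155 CPM in Astrocytes_1 of V2 mice and to 8.43 to 54.5 CPM in those of V3.8 mice, and in microglia to 160 to 355 and 24.4 to 51.0 CPM. Their part in the levels of the members outside neurons was not tested. *Pcdha1*, highest in excitatory neurons, showed the same order in Astrocytes_1, at 17.1, 17.4 and 18.5 CPM in V2 and at 9.7, 6.0 and 7.2 CPM in V3.8 mice.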

How the data were processed

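Cells from 3 WT and 3 *Fmr1*-KO P5 cortices were processed by the authors, who demultiplexed reads with bcl2fastq, aligned them to mm10 with TopHat 2.0.14 and a RefSeq transcriptome, and counted UMIs per gene with ESAT, ignoring reads with several alignments and merging similar UMIs. The deposited table held these UMI counts, not normalized, for cells the authors kept, beside their subtype and doublet calls. The size factors of the authors were not used.

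Doublets were removed and counts were summed per mouse and subtype (at least 10 cells per mouse and 100 cells per genotype). Genes detected in 15% or more of a subtype's cells entered edgeR 4.0.16 (R 4.3.3), with TMM, a bead version term and a quasi-likelihood test of genotype, and were called at a Benjamini-Hochberg FDR under 0.01 and 1.15-fold. This procedure was tested on simulated data, in which 200 genes per subtype were changed by a log2 fold change of 1. It recovered 99.5% of them in Astrocytes_1 and 88.5% in Excitatory. Recovery was 59% in Pericytes, 50.5% in Microglia and 34.5% in Oligodendrocytes. DESeq2 1.42.0, other filters and normalizations, the model without bead version, a replicate block and leaving out each mouse were the alternatives. Ratios within a bead version used CPM + 0.5. Levels, sequences and figures were handled in Python 3.11.15. The p-values measure the spread between these mice, and depth per mouse is given above.

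Members and gene lists were chosen with earlier results of these data known. Genes named were the 3 members with the smallest p per subtype, those at least 1.5 times higher in 1 subtype than in the next with a mean of at least 20 CPM, the 2 with most UMIs per family and those tested in 5 or more subtypes. *Cdh6* and the other members described for bead version were chosen after their values were seen, as was the bead version test. Partner genes were named by the smallest p in a subtype.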

Additional observations from a re-analysis of the deposited data

How the results depend on the processing

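No member was called for genotype under any alternative. The number at an unadjusted p under 0.05 was 4 of 82 with edgeR (5.04% of all genes), 2 with DESeq2 (1.65%), 4 without TMM (5.05%), 0 without the bead version term (2.13%), 12 of 183 with filterByExpr (4.47%), 25 of 649 with no filter (4.08%), 3 with recurring barcodes kept once (4.94%, chosen after seeing the data), and 3 to 9 when a mouse was left out (4.31 to 6.56%, with 9 members without WT 1 or *Fmr1*-KO 3, where 6.56% and 6.09% of all genes passed). Whether the replicate numbers pair the mice could not be told, since the correlations of deviations followed bead version. For same-numbered mice they were 0.59 and 0.66 where the version was shared and -0.51 where it was not. WT 1 and *Fmr1*-KO 2, which have different numbers but the same version, gave 0.66. The replicate block called 0 members, with 5 at an unadjusted p under 0.05 (4.51% of all genes). Of the 82 fold changes, 26 changed direction without the bead version term, 24 with the replicate block, 7 to 22 when a mouse was left out and 0 to 4 under the other alternatives. Single values are given for *Pcdhga9* in all 10 subtypes and for the 3 members with the smallest p in each. Without the bead version term *Pcdhga9* changed direction in 9 subtypes, to 0.24 in Astrocytes_1, 0.0552 in Astrocytes_2, 0.28 in Excitatory, 0.11 in Ganglionic, 0.0645 in Interneuron, 0.0797 in Microglia, 0.0112 in OPC_1, 0.18 in Oligodendrocytes and 0.0605 in Pericytes. With the replicate block it did so in 7, to 0.22 in Astrocytes_1, 0.0474 in Astrocytes_2, 0.29 in Excitatory, 0.0967 in Ganglionic, 0.0628 in Interneuron, 0.13 in Oligodendrocytes and 0.0672 in Pericytes, and *Pcdh12* in Endothelial was -0.0404. With a mouse left out, *Pcdhga9* ran from -0.13 to 0.0653 in Astrocytes_1 (above 0 without *Fmr1*-KO 3) and from -0.31 to 0.15 in Ganglionic (above 0 without *Fmr1*-KO 3, or at 0.0435 without WT 3). The log2 fold change of *Pcdh8* in Astrocytes_2 ran from -0.28 to 0.0160 (highest without *Fmr1*-KO 2). That of *Cdh4* ran from -0.0397 (without *Fmr1*-KO 1; -0.0292 without WT 3) to 0.24 in Astrocytes_2, from -0.14 (without WT 1) to 1.12 in Ganglionic and from -0.10 (without WT 1) to 0.37 in OPC_1. That of *Pcdh12* ran from -0.44 to 0.71 in Endothelial and from -0.24 to 0.75 in Pericytes, in both lowest without *Fmr1*-KO 3. The causes were not tested.

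The count of members set apart by subtype was 9, but 18 with WT mice only (20.7% of members, beside 27.5% of all genes) and 10 to 12 when a mouse was left out (11.2 to 13.5%, beside 17.8 to 18.6%). With filterByExpr, which tests more genes, members called for bead version were 14 of 35 in excitatory neurons, in place of 7 of 13. In Astrocytes_1 they were 11 of 35, in place of 5 of 12. With DESeq2 they were 2 of 14 in OPC_1, in place of 4. Leaving out a mouse gave 4 to 8 in excitatory neurons (4 without *Fmr1*-KO 3), 2 to 5 in Astrocytes_1 (2 without *Fmr1*-KO 3) and 2 to 3 in OPC_1 (2 without *Fmr1*-KO 1). The share of all genes called for bead version was not taken under these alternatives, so these counts have no background beside them. Keeping doublets gave no value, because they carry no subtype name. With 3 mice per genotype and SEs up to 0.45, differences of the size of these SEs were not detectable, and 69 members were too sparse for a test.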

Other observations

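With no filter on low genes, none of 649 member tests passed the FDR of 0.01, and 2 had an FDR under 0.05 by edgeR. Among 145296 tests of all genes in these fits, 104 were called at an FDR under 0.01. The share of all genes under 0.05 was not taken, so the 2 cannot be set against it. *Pcdh18* in endothelial cells had a log2 fold change of 1.22 (SE 0.28, FDR 0.0185, edgeR), at 57.0, 51.8 and 8.3 CPM in WT 1, 2 and 3 and at 66.9, 104 and 59.7 CPM in *Fmr1*-KO 1, 2 and 3. Each *Fmr1*-KO mouse lay above each WT mouse, and WT 3 was far below the rest. *Pcdh18* was highest in pericytes, and the 5 pericyte markers summed to 964, 1019 and 277 CPM in endothelial cells of WT and to 531, 581 and 1387 CPM in those of *Fmr1*-KO mice, so that WT 3 was lowest there too. Their part in the *Pcdh18* difference was not tested.

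*Pcdh11x* in interneurons had a log2 fold change of -1.49 (SE 0.37, FDR 0.0487, edgeR), at 64.5, 37.3 and 23.5 CPM in WT 1, 2 and 3 and at 25.9, 24.9 and 6.4 CPM in *Fmr1*-KO 1, 2 and 3. The groups overlapped, since WT 3 lay below *Fmr1*-KO 1 and 2. *Pcdh11x* had a UMI in 5.59% of 1109 interneurons and *Pcdh18* in 10.9% of 1439 endothelial cells, below the 15% used elsewhere.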
